A study of Rattus norvegicus with 4 samples.

Results

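Transcript levels of calcium-responsive signalling enzymes and calcium pumps were followed in depolarized rat cortical neurons, by the genes Itpka, Ptk2b, Atp2b1, Atp2b2 and Atp2b3. All probe sets to which the platform annotation gives one of these symbols were taken, which were 10 of the 1263 probe sets on the array that are not manufacturer's controls, and they covered 4 of its 720 genes with a symbol. Itpka had 1 probe set, Ptk2b 2, Atp2b1 3 and Atp2b2 4. No probe set carried the symbol Atp2b3, and 118 probe sets had no symbol, so Atp2b3 is not analysed here. The genes were picked with the KCl against control results of these same arrays known, so their values and calls in that comparison are given below as a description, without p-values for these genes.

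The cells were primary cortical neurons prepared from rat embryos (embryonic day 17) and grown for 14 days in Neurobasal medium with the B27 supplement, without any genetic change. Controls received phosphate-buffered saline for 4 h and the treated cultures 25 mM KCl for 4 h, and each group had 2 Affymetrix arrays, numbered 1 and 2 as in their titles. A description field words all 4 samples as unstimulated, against the titles and treatment notes, which were followed. The labels do not state whether a group's arrays stem from separate cultures, so the spread between them may be technical.

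Raised extracellular potassium depolarizes neurons and opens voltage-gated calcium channels, and the calcium that enters is read by calmodulin and by calcium-dependent kinases. Itpka encodes inositol trisphosphate 3-kinase A, a calmodulin-stimulated enzyme of dendritic spines that phosphorylates the second messenger inositol trisphosphate and binds actin filaments. Ptk2b encodes Pyk2, a relative of focal adhesion kinase that is activated when cytosolic calcium rises and works with kinases of the Src family. Atp2b1 and Atp2b2 encode plasma membrane calcium ATPases, calmodulin-stimulated pumps that move calcium out of the cell, the first made in most tissues and the second prominent in neurons.

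The kinase genes and Atp2b2 were lower after KCl, by 1.41-fold to 1.83-fold on 5 of the 6 probe sets that passed. On the other, of Atp2b2, 1 KCl value lay within background, so its fold is imprecise. Of the 10 probe sets, 6 passed as lower (adjusted p below 0.05 in limma, a linear model fitted over all 947 tested probe sets), none passed as higher and 4 did not pass. They were the single probe set of Itpka, both of Ptk2b and 3 of the 4 of Atp2b2, whereas 0 of the 3 of Atp2b1 passed (0 at an unadjusted p below 0.05). Over all tested probe sets 5.28% passed as lower and 5.49% as higher. All 10 members passed the filter on dim probe sets, and their median log2 change (KCl minus control) was -0.56, against -0.10 over all probe sets tested. Both KCl arrays lay below both control arrays on 7 of the 10 and above them on 1, and over all tested probe sets this was so for 36.5% and 21.4%. Since the genes were picked from this comparison, nothing is read from the counts. Without the intensity trend in limma's variances 0 of the 10 passed (6 at an unadjusted p below 0.05), where 3 of all 947 tested probe sets passed as lower. With dim probe sets kept 2 of the 10 passed, where 33 of 1263 tested probe sets passed as lower.

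The upstream sequences of the pump genes were set side by side, because transcripts of Atp2b2 but not of Atp2b1 passed, although a difference between these genes was not tested. The table of RefSeq promoters (build GRCr8) held 1 start for each of these and matched 2 of the 4 measured genes, the others being Itpka and Ptk2b. The 250 bases before the start lie at chr7:35622211-35622460 on the plus strand for Atp2b1 and at chr4:148763654-148763903 on the minus strand for Atp2b2. Capitals mark the GC box GGGCGG or its reverse complement.
Atp2b1: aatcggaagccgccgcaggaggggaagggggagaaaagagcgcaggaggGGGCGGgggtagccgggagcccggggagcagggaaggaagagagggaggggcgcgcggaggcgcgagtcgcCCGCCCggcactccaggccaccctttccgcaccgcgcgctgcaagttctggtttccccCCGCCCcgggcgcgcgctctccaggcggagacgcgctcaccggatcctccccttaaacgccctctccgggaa
Atp2b2: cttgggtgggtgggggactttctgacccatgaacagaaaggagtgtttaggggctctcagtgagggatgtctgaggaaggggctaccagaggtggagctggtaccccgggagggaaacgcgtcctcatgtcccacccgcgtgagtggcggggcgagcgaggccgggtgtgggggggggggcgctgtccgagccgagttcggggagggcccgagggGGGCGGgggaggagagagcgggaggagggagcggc
The window of Atp2b1 held 3 GC boxes, starting at positions -201, -130 and -72 from the start, and that of Atp2b2 held 1, at -35. A GC box was found in 30.5% of 33469 windows of this length. Guanine and cytosine made up 72.8% of the Atp2b1 window and 69.2% of the Atp2b2 window, where the median over all windows was 51.2%. Neither window held the cAMP response element TGACGTCA, found in 1.59% of all windows, or its half-site TGACG, found in 18.2% and contained in the full element. Neither held the AP-1 site TGANTCA or the Egr1 site GCGNGGGCG, which 6.34% and 4.29% of windows held. Both strands were searched, and a match or its lack describes only these letters in this window.

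**Figure D1:**
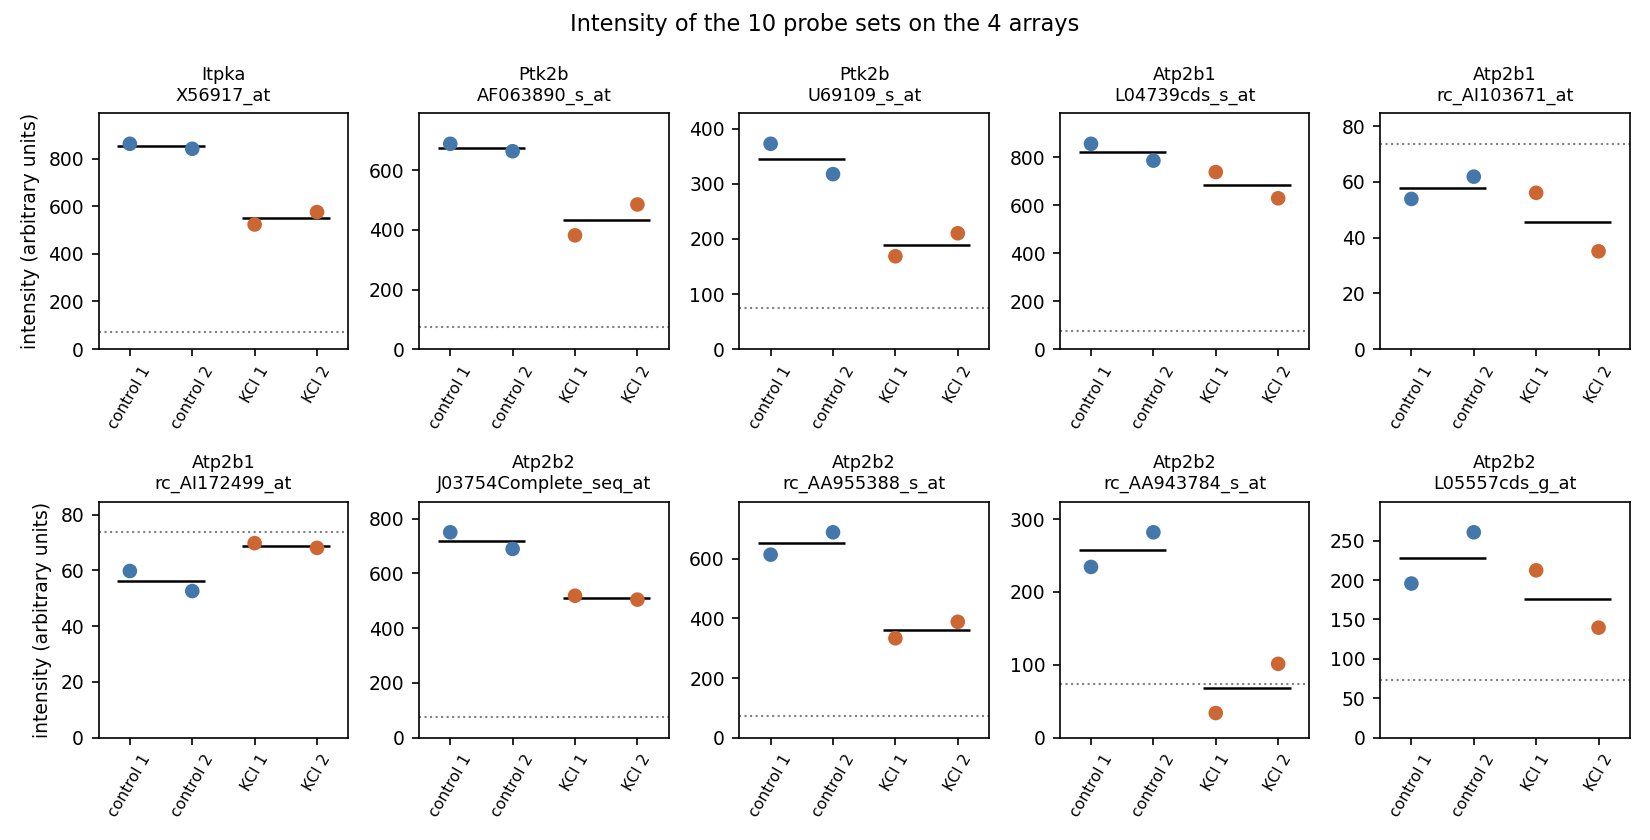
Intensity of each of the 10 probe sets (vertical axis from 0, arbitrary units, a scale of its own in each panel) on the 4 arrays (horizontal axis); bars are group means of 2 arrays and the dotted line is 73.7, the highest intensity of the background probe sets. The KCl points of Itpka, Ptk2b, 3 probe sets of Atp2b2 and L04739cds_s_at of Atp2b1 lie below both control points. The other 2 of the 3 probe sets of Atp2b1 lie under the dotted line throughout.

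Itpka was measured by X56917_at, which read 862.1 on control 1, 841.2 on control 2, 523.2 on KCl 1 and 575.3 on KCl 2. The groups did not overlap, and the control arrays were closer to each other than the KCl arrays were. The mean fell from 852 ± 15 to 549 ± 37 (SD, n = 2 arrays per group), 1.55-fold, a log2 change of -0.63 ± 0.13 (SE). The probe set ranked 112 of 947 from the most negative log2 change upwards. With each array left out in turn its log2 change ran from -0.70 to -0.57. It was -0.62 without control 1 and -0.65 without control 2, where the spread came from the KCl pair alone.

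Ptk2b, the calcium-activated tyrosine kinase gene, was lower after KCl on both of its probe sets. On AF063890_s_at the intensities were 689.5 and 664.5 in controls and 382.0 and 485.7 after KCl, a 1.57-fold lower level with a log2 change of -0.65 ± 0.16. On U69109_s_at they were 372.7 and 317.6 in controls and 168.5 and 210.3 after KCl, 1.83-fold lower with a log2 change of -0.87 ± 0.19. On both probe sets the groups did not overlap and KCl 1 was the lowest array, with KCl 2 at 1.27 and 1.25 times its value. Without KCl 1 the log2 change of AF063890_s_at was -0.48. The log2 changes of the 2 probe sets were -0.63 and -0.75 without control 1, and -0.68 and -0.99 without control 2. With quantile normalization AF063890_s_at did not pass and U69109_s_at did. The suffix s marks probe sets whose probes can match several transcripts, which also holds for 2 probe sets of Atp2b2 and 1 of Atp2b1.

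Atp2b2, the calcium pump gene prominent in neurons, was lower on 3 of 4 probe sets, which differed among themselves in size. J03754Complete_seq_at read 749.8 and 689.0 in controls and 518.0 and 503.9 after KCl, 1.41-fold lower (log2 change -0.49 ± 0.13). The groups did not overlap, and the KCl arrays lay closer together than the control arrays. On rc_AA955388_s_at the values were 614.1 and 689.2 in controls and 333.4 and 388.6 after KCl, 1.81-fold lower (log2 change -0.85 ± 0.15). Here too every KCl value was below every control value.

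The largest difference among the 10 was on rc_AA943784_s_at of Atp2b2, with 234.4 and 282.0 in controls and 33.7 and 101.3 after KCl. The groups did not overlap, but the gap of 1.21 on the log2 scale between them was smaller than the distance of 1.59 within the KCl pair, and KCl 1 lay under the background level of 73.7. Its ratio of 4.40 (log2 change -2.14 ± 0.46) therefore depends on background, and the log2 change was -1.34 without KCl 1 and -2.93 without KCl 2. The remaining probe set, L05557cds_g_at, read 195.6 and 260.7 in controls and 212.4 and 139.6 after KCl, so the groups overlapped, and it did not pass (log2 change -0.39 ± 0.26). Its direction is that of the other 3, and with arrays left out its log2 change ran from -0.69 (without KCl 1) to -0.09 (without KCl 2).

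The log2 changes of the 3 probe sets of Atp2b2 that passed were also taken without each control array. Such a fit leaves 1 control array, so its calls are not read as a trait of Atp2b2. Without control 1 the log2 changes were -0.43 for J03754Complete_seq_at, -0.94 for rc_AA955388_s_at and -2.27 for rc_AA943784_s_at. Without control 2 they were -0.55, -0.77 and -2.00. J03754Complete_seq_at, which had the smallest change of the 3, did not pass with quantile normalization or with the arrays centred on their medians.

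Atp2b1, the pump gene made in most tissues, had 1 probe set well above background. L04739cds_s_at read 855.1 and 785.0 in controls and 737.3 and 628.1 after KCl, with a log2 change of -0.27 ± 0.14 that did not pass. Both KCl values were below both control values, but the gap of 0.09 on the log2 scale between the groups was smaller than the distance within the control pair (0.12) or the KCl pair (0.23). With arrays left out the log2 change ran from -0.38 (without KCl 1) to -0.15 (without KCl 2) and did not pass.

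The other probe sets of Atp2b1 lay within background in both groups, meaning that no value exceeded 73.7. rc_AI103671_at read 53.9 and 61.9 in controls and 56.1 and 35.1 after KCl, with overlapping groups and a log2 change of -0.38 ± 0.46. rc_AI172499_at read 59.8 and 52.6 in controls and 69.8 and 68.1 after KCl, the only probe set of the 10 with a positive log2 change (0.30 ± 0.37). Neither gives a usable level of Atp2b1. That Atp2b2 passed and Atp2b1 did not is no test of a difference between the pump genes, and that difference was not tested. The log2 changes of their brightest probe sets were -0.49 ± 0.13 for Atp2b2 and -0.27 ± 0.14 for Atp2b1.

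**Figure D2:**
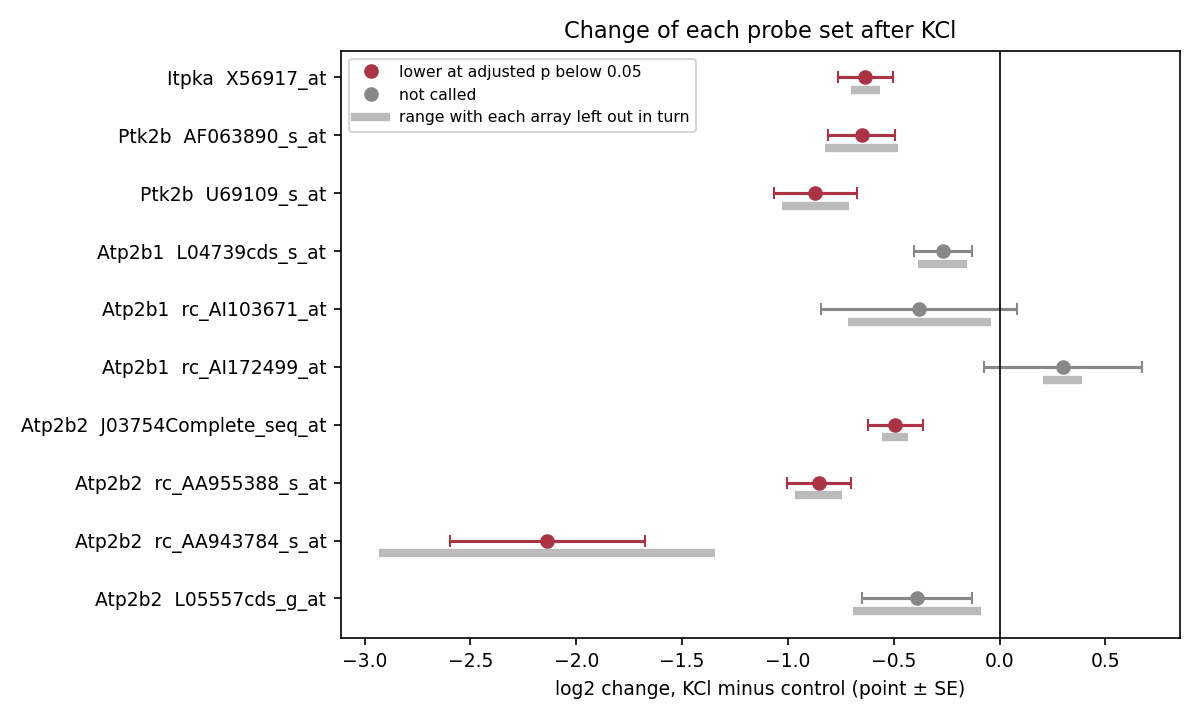
Log2 change (KCl minus control, horizontal axis) of each probe set with its SE; grey bars below each point give the range when each array was left out in turn. The 6 probe sets that passed run from -2.14 to -0.49, and rc_AA943784_s_at of Atp2b2 has the widest range, from -2.93 to -1.34.

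The KCl arrays did not differ in one way over the members. KCl 2 was above KCl 1 on 5 of the 10 probe sets, namely those of Itpka and Ptk2b and 2 of Atp2b2, and below it on the other 5, which included all 3 of Atp2b1. Over all tested probe sets KCl 2 was the higher for 57.8%. The profile of Itpka over the 4 arrays was closest, among the other members, to AF063890_s_at of Ptk2b, with a root mean square difference of 0.07 between their log2 values after each was centred on its own mean.

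The same measure over 4 arrays was used to name the 5 genes nearest to each kinase gene among 566 other genes. Nearest to Itpka were Dlg3, a postsynaptic scaffold gene, with 0.017, Nrxn2, a presynaptic adhesion gene, with 0.036, the glutamate transporter genes Slc1a1 with 0.043 and Slc1a6 with 0.046, and the metabotropic glutamate receptor gene Grm7 with 0.051. The median over all genes was 0.33. Of these, Nrxn2, Slc1a1 and Grm7 fell after KCl on the probe set compared, and Dlg3 and Slc1a6, with log2 changes of -0.66 ± 0.20 and -0.56 ± 0.19, did not pass. D16817_at of Grm7 (-0.43 ± 0.16) and AF038571_s_at of Slc1a1 (-0.40 ± 0.13) did not pass, while D63772_at of Slc1a1 did (-0.44 ± 0.11). Nearest to AF063890_s_at of Ptk2b were Rab28, a small GTPase gene, with 0.014, the proteoglycan gene Cspg5 with 0.032, the acid-sensing channel gene Asic2 with 0.039, Slc1a1 with 0.051 and the ring finger gene Rnf112 with 0.056, and the median was 0.35. All 5 of these fell on the probe set compared, with log2 changes from -0.69 to -0.58. With 4 arrays in 2 groups, any gene with a change of this size and similar replicates lies near, so the names are a description.

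**Figure D3:**
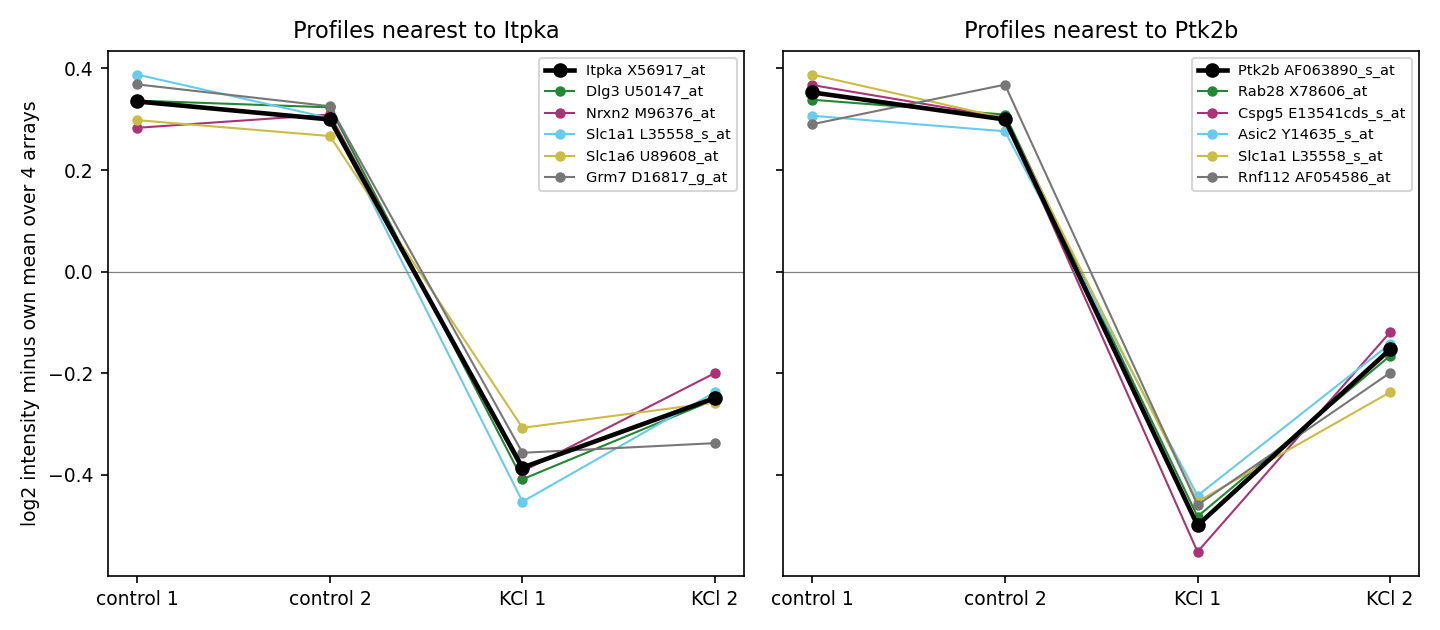
Log2 intensity minus its own mean over the 4 arrays (vertical axis) for Itpka (left) and Ptk2b (right) in black and the 5 nearest genes in colour; lines only join the points of 1 probe set. The black profiles lie above 0 on both control arrays and below 0 on both KCl arrays, with KCl 1 the lowest.

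Other genes of calcium signalling were counted from 5 lists of 98 genes, of which 26 were tested. Of these 26 genes, 1 rose (S100b) and 0 fell in limma (5 at an unadjusted p below 0.05). Counted the same way, by any of its probe sets, 5.26% of all 570 tested genes rose and 6.84% fell. The median log2 change over the brightest probe sets of the 26 genes was -0.19, and that of all tested genes was -0.09. Of the 26 genes 20 lay below 0 on their brightest probe set. Over all tested probe sets, counted singly rather than by gene, 60.3% lay below 0. S100b, a calcium-binding protein gene of astrocytes, rose 2.59-fold on its brighter probe set, from 460.1 and 488.5 to 1558.3 and 966.5 (limma adjusted p = 0.0044), and it did not pass without control 1, without control 2 or without the intensity trend. Its other probe set did not pass (log2 change 0.37 ± 0.52).

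Among 5 tested genes of other calcium pumps and exchangers, 0 passed in limma (0 at an unadjusted p below 0.05). Atp2a2, the gene of the pump that loads calcium into the endoplasmic reticulum of most cells, read 2886.2 and 2904.5 in controls and 2773.8 and 2841.8 after KCl, a log2 change of -0.04 ± 0.10, although a dim second probe set had 0.64 ± 0.37. Its relative Atp2a3 had -0.08 ± 0.24, and the sodium-calcium exchanger gene Slc8a2 had -0.12 ± 0.29, with KCl arrays at 136.5 and 256.5 on either side of the controls. The values of Atp2a2 on its bright probe set thus lay within 0.1 log2 units of each other across the arrays. The lowest log2 change of this list was that of the exchanger gene Slc24a2, named after its values were seen (-0.79 ± 0.41, not passing). It read 77.7 and 70.3 in controls and 38.1 and 48.0 after KCl, with both KCl values within background.

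Of 4 tested genes of the inositol trisphosphate pathway and calcium stores, 0 passed in limma (1 at an unadjusted p below 0.05). The gene with the low unadjusted p was Plcb1, which encodes a phospholipase C that makes inositol trisphosphate, with 1576.9 and 1236.6 in controls and 1012.2 and 1108.8 after KCl (log2 change -0.40 ± 0.14, limma adjusted p = 0.13). It passed as lower without KCl 2. Itpr1, the gene of the receptor that inositol trisphosphate opens, had -0.39 ± 0.22, and Pik3r1, a regulatory subunit gene of phosphoinositide kinase, had -0.06 ± 0.16. Itpkb, the relative of Itpka and named after its values were seen, read 74.0 and 85.9 in controls and 105.6 and 98.1 after KCl, close to background, with a log2 change of 0.35 ± 0.29 that did not pass.

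Of 11 tested genes for calmodulin and its effectors, 0 passed in limma (1 at an unadjusted p below 0.05, Camk2d). The calmodulin genes Calm2 and Calm3 had log2 changes of -0.03 ± 0.10 and -0.21 ± 0.10. Camk2b, a subunit gene of calmodulin-dependent kinase II, had 0.03 ± 0.15 on M16112_g_at, its brightest, and -0.19 ± 0.12 on M16112_at. Among 5 genes of EF-hand proteins, which bind calcium through a helix-loop-helix fold, S100b was the one that passed, and 3 had an unadjusted p below 0.05 (S100b, S100a1 and Hpcal4). Hpca and Hpcal4, neuronal calcium sensor genes, had -0.22 ± 0.13 and -0.40 ± 0.16 on their brightest probe sets. S100a1, a relative of S100b named after its values were seen, did not pass on either probe set, with 0.60 ± 0.27 and 2.19 ± 0.67, the KCl arrays lying above the controls on both and the controls of the latter within background. Of the focal adhesion and Src family list only Fyn was tested, a Src family kinase gene, with 2619.3 and 2575.5 in controls and 2395.9 and 2156.2 after KCl (log2 change -0.19 ± 0.11, not passing, unadjusted p = 0.11).

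**Figure D4:**
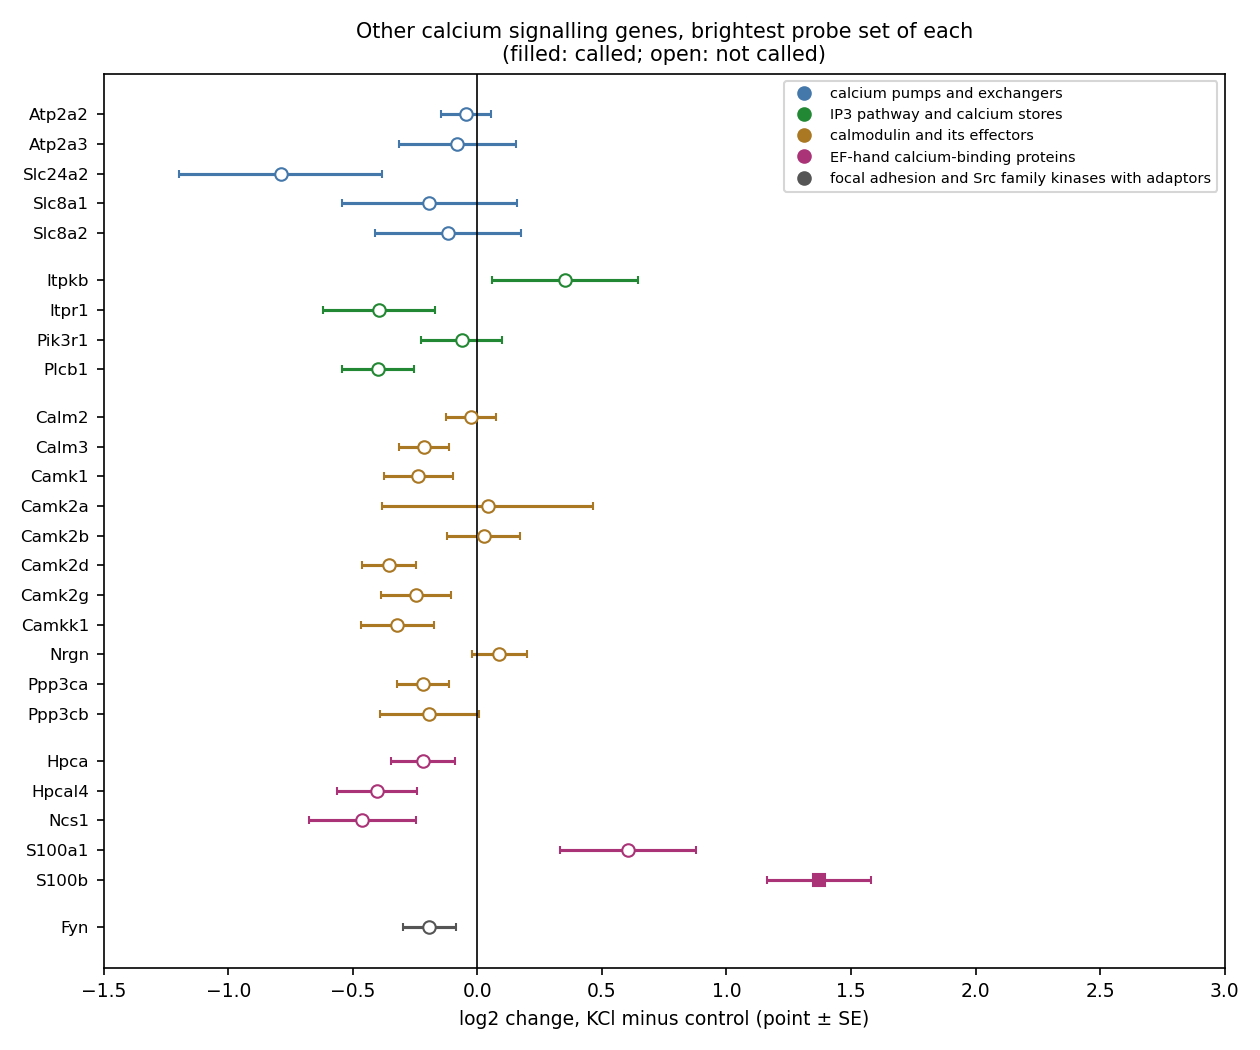
Log2 change (KCl minus control, horizontal axis) with SE of the brightest tested probe set of the 26 listed calcium signalling genes, coloured by list. The filled symbol, S100b at 1.37, is the 1 gene that passed, and 20 of the points lie below 0. Over all tested probe sets, counted singly rather than by gene, 60.3% lay below 0.

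Markers of cell types moved on the same arrays. Of 7 tested astrocyte markers 6 rose (S100b, Slc1a3, Glul, Apoe, Gja1 and Vim), and their summed intensity was 5220 to 5484 on the control arrays and 9974 to 12551 on the KCl arrays, with the seventh, Slc1a2, within background. Not all of their probe sets passed. X63744_at (0.27 ± 0.29) and X63744_g_at (1.04 ± 0.53) of Slc1a3 did not. Nor did rc_AA852004_s_at (0.41 ± 0.16) and rc_AI012265_i_at (0.52 ± 0.26) of Glul. Without control 1, without control 2 or without the intensity trend 0 of the 7 passed in limma (5, 6 and 6 at an unadjusted p below 0.05). Of 4 inhibitory neuron markers Gad1, Slc32a1 and Sst fell, and the sum was 8374 to 8893 in controls and 3094 to 3702 after KCl. Npy did not pass (log2 change 0.23 ± 0.16), and both of its KCl values lay above both control values. The dimmer probe set of Slc32a1 did not pass either (-1.09 ± 0.42). Of 9 neuron markers 1 rose in limma (Snap25, on 1 of 4 probe sets) and none passed as lower (3 with an unadjusted p below 0.05, Snap25, Syp and Nefl). Syp had a log2 change of -0.29 ± 0.10, and Nefl had -0.31 ± 0.13 on its dimmer probe set and 0.01 ± 0.11 on its brighter. Of the 9, 0 lay within background, and the sum was 32421 to 33721 in controls and 30836 to 31445 after KCl. The 2 tested microglial and immune markers, Itgam and Ccl2, lay within background in both groups and did not pass in limma (0 with an unadjusted p below 0.05). Of 4 oligodendrocyte markers none passed in limma (0 with an unadjusted p below 0.05), Mbp and Mog lay within background, and the sum was 528 to 560 in controls and 539 to 609 after KCl. The 1 endothelial or fibroblast marker tested, Vcam1, did not pass in limma (1 with an unadjusted p below 0.05). Its log2 change was 0.72 ± 0.27, with both KCl values above both control values. The 3′ to 5′ ratio of hexokinase, an RNA quality control, was 2.25 on control 1, 2.00 on control 2, 2.49 on KCl 1 and 2.67 on KCl 2, and the Gapdh controls had 1.17 to 1.23 over all arrays. The part of cell makeup and RNA quality in the lower levels of Itpka, Ptk2b and Atp2b2 was not tested, and in RNA from whole cultures fewer cells of a type and less RNA per cell cannot be told apart.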

How the data were processed

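Per the labels, biotin-labelled cRNA from 5 µg of total RNA was hybridized to 1-colour Affymetrix neurobiology arrays. The authors deposited 1 linear intensity per probe set and array, in arbitrary units. How probes were summarised and arrays scaled is not given in the sources used here. Trimmed means (2%) of the arrays lay between 502.0 and 502.4, so the intensities were used as deposited and taken to log2. Of 1322 probe sets, 59 controls were left out, then the dimmest 25% by mean (316, means up to 33.3), which left 947. Symbols came from the platform annotation, and all that could be matched to RefSeq by gene number were unchanged there. The background level comes from 19 control probe sets for transcripts of bacteria and yeast (median 9.05, highest 73.7).

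KCl was compared with control in limma 3.58.1 (R 4.3.3; lmFit, and eBayes with an intensity trend), two-sided, with Benjamini-Hochberg adjustment over the 947. Fold changes are ratios of geometric means, and ± after a log2 change is limma's SE. An exact permutation test of 2 against 2 arrays cannot go below p = 0.33, and precision is limited by the number of arrays. The test was checked on simulated data.

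The members and gene lists were chosen with earlier results of these data known. Named were all member probe sets, list and marker genes that passed, the 3 brightest genes of each calcium list, and the 5 nearest profiles to Itpka and Ptk2b, and other names were chosen after their values were seen. Alternatives covered normalization, scale, filter, replicate block, variance trend and leaving out each array.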

Additional observations from a re-analysis of the deposited data

How the results depend on the processing

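The log2 change of each of the 10 member probe sets kept its sign under every alternative that could be computed. This was largely fixed beforehand, since the filter, replicate block and variance trend leave the log2 change as it is. Where the groups did not overlap, leaving out an array cannot turn the sign either. The stricter filter left out 2 dim probe sets of Atp2b1. The number of probe sets called over the whole table, 102, was 50 with a replicate block, 21 without the intensity trend, and 11 to 178 with each array left out in turn. Of the member probe sets 6 passed, against 2 with no filter on dim probe sets (rc_AA955388_s_at of Atp2b2 and Itpka), 2 with the replicate block (rc_AA955388_s_at and rc_AA943784_s_at of Atp2b2), 0 in limma without the intensity trend (6 with an unadjusted p below 0.05), and 0 to 6 with each array left out. The 0 came without control 1 and without control 2, where 4 and 5 had an unadjusted p below 0.05 in limma. Quantile normalization called 4 and centring on the median 5. Of the calcium list genes 1 passed, against 0 in limma without the trend (3 with an unadjusted p below 0.05) and 0 to 2 with each array left out, the 0 again without either control array (5 and 4 with an unadjusted p below 0.05) and the 2 without KCl 2. More tests were made without a filter and fewer arrays were used when 1 was left out, but why these counts moved was not tested. The difference between control 1 and control 2 had a correlation of -0.03 with that between KCl 1 and KCl 2 over the probe sets. That value gives no sign of pairing by the replicate numbers in the titles, but it cannot exclude such pairing. Signal over background limits 2 probe sets of Atp2b1 and the KCl values of rc_AA943784_s_at.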
